A study of Mus musculus with 8 samples.

Results

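The sites described here are places in the mouse genome where ZBTB2 was found in embryonic stem cells (ESCs) grown in either of 2 culture media. A site is a pair made of a peak from cells in serum with LIF (serum ESCs) and a peak from cells in such medium to which 2i had been added (2i ESCs) that overlap by 1 bp or more in the mm9 build. There were 3324 such pairs, joining 3227 of the 4072 serum peaks and 3158 of the 5934 2i peaks. Peaks on contigs of unknown position, on the mitochondrial chromosome and in a dense block of peaks near the start of chromosome 10 were left out, which removed 9 pairs. The question was how far the width, the centre and the rank of a site differed between the media once both lists held it.

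Both groups were IB10 ESCs of 129/Ola background that carried ZBTB2 fused to GFP on a bacterial artificial chromosome (BAC), and ZBTB2 was pulled down with the GFP antibody ab290. The controls of the series, inputs and GFP pull-downs from untagged cells, are not analysed here. A BAC adds copies of a gene to those the cell already has. How many it added, and whether the line was 1 clone, is not given in the sources used here. Each medium had 1 library, so differences between media could not be set against replicates, and none is tested. Intervals on shares are exact binomial (Clopper-Pearson) 95% intervals, which treat sites as independent and cover counting error only. The number of reads in each library is unknown.

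ZBTB2 belongs to the family of proteins with a BTB domain, which pairs such proteins with each other, and zinc fingers, which hold DNA. The study concerned ZBTB2 as a protein that recognises DNA without methylation. LIF keeps ESCs from differentiating, and 2i inhibits the kinases MEK and GSK3, which brings ESCs closer to a ground state and is known to lower the methylation of their DNA. A ChIP-seq peak is the stretch over which the pulled-down fragments exceed the background, so its width reflects fragment length and signal strength as well as the length of the bound DNA.

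Most shared sites were simple. The overlapping peaks formed 3061 groups, and 2825 of these groups, or 92.3%, held exactly 1 serum and 1 2i peak. These one-to-one pairs lay on the 19 numbered chromosomes and X, and they are the base of the values below unless stated. A further 140 groups held several serum peaks under 1 2i peak, 79 held 1 serum peak over 2 2i peaks and 17 were mixed.

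Peaks of the same site were on the whole slightly wider in 2i ESCs. Serum widths had a median of 441 bp (quartiles 304 and 651) and 2i widths a median of 488 bp (quartiles 324 and 705). The 2i peak was the wider one at 1609 of 2825 pairs, or 57.0% (95% interval 55.1 to 58.8), and the narrower one at 1205. The median width ratio, 2i over serum, was 1.05 (quartiles 0.857 and 1.33), or 0.074 on the log2 scale. The difference was therefore small beside the scatter from site to site, whose quartiles lay on both sides of no change. A ratio of at least 1.5 in favour of 2i was seen at 473 pairs (16.7% of the 2825 tested) and in favour of serum at 286 pairs (10.1%). The remaining 73.1% (71.5 to 74.8) differed by less than that. Over all pairs the serum peaks covered 1450 kb, the 2i peaks 1561 kb and their overlap 1249 kb.

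This order of widths was opposite to that of the whole lists, in which the median was 380 bp for serum and 330 bp for 2i. The narrowest peak also differed: 180 bp in the serum list, shared by 81 peaks, and 156 bp in the 2i list, shared by 141. Without the pairs in which either peak was under 200 bp, 2527 pairs remained and 58.8% of them were wider in 2i. The same direction was thus seen among the remaining pairs. The whole lists held 361 serum and 1119 2i peaks under 200 bp. This filter may therefore not act alike on the media, and it cannot show what part the narrowest peaks play.

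**Figure D1:**
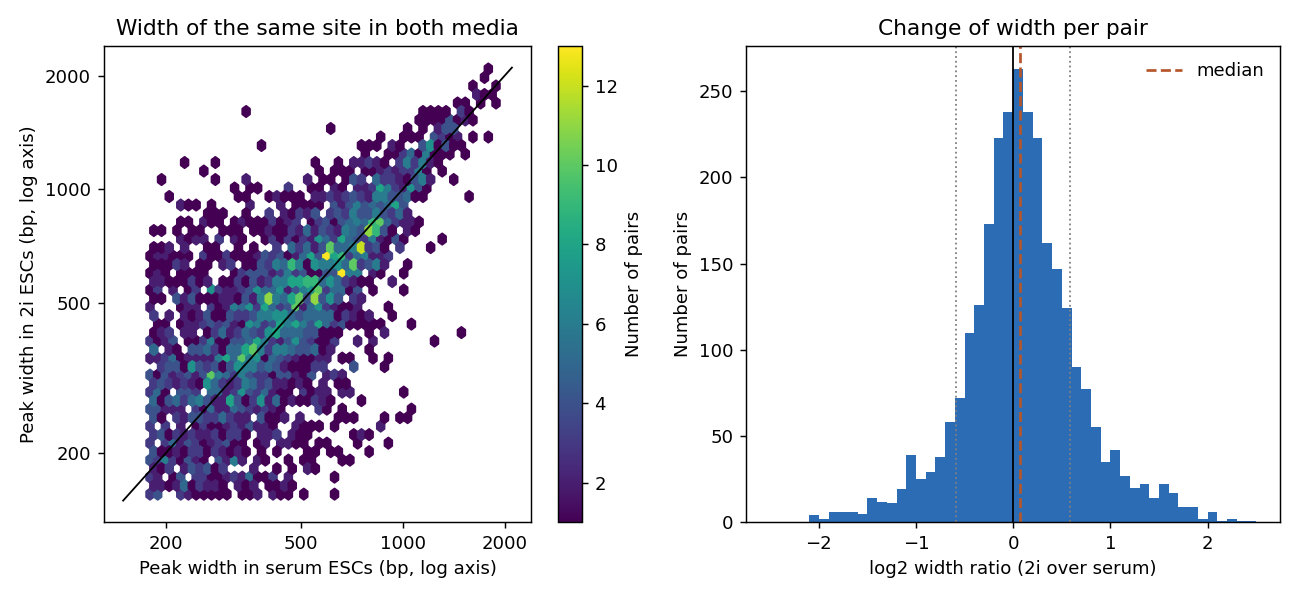
Left: width in serum ESCs (x, bp, log axis) against width in 2i ESCs (y, bp, log axis) of the 2825 one-to-one pairs, coloured by the number of pairs, with the line of equal widths. Right: number of pairs by log2 width ratio, with the median of 0.074 dashed and the 1.5-fold limits dotted; more pairs lie beyond the upper limit (473) than beyond the lower one (286).

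Width grows with score within each list, so widths were also compared at equal standing. Scores here are the authors' peak scores, −log10 values of a p or q from peak calling. They ranked the 2825 pairs once by serum and once by 2i score. In every decile of this ranking the 2i peaks had the larger median width, by a ratio of 1.06 in the lowest decile (256.5 and 272.5 bp), 1.13 in the sixth (475 and 537 bp) and 1.06 in the highest (831 and 877 bp). The wider 2i peaks were thus seen among weak and strong sites alike.

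The centres of paired peaks lay a short way apart, in no preferred direction. Peaks had to overlap to form a pair, which itself limits the shift. A site that moved further would count as unpaired. The 2i centre lay a median of 44 bp from the serum centre (quartiles 20.5 and 88), or 10.9% of the width of the narrower peak. At 673 pairs, or 23.8% (22.3 to 25.4), the shift was under 20 bp. Shifts of 100 bp or more were seen at 591 pairs (20.9% of the 2825 tested), and of 200 bp or more at 110. The 2i centre was at the higher coordinate in 1414 pairs and at the lower in 1398, and the median signed shift was 0.5 bp. At 159 pairs, or 5.63% (4.81 to 6.54), the 2i centre fell outside the serum peak. In the typical pair the overlap made up 73.6% of the stretch covered by either peak.

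Both edges contributed to the larger 2i width. The 2i edge lay outside the serum edge at 53.1% (51.2 to 54.9) of low-coordinate ends and 53.6% (51.8 to 55.5) of high-coordinate ends, by medians of 7 and 8 bp over all pairs. The distances at the 2 ends had a Spearman correlation of 0.12 across the 2825 pairs, whose edges come from the same 2 libraries. The serum peak lay inside the 2i peak at 894 pairs, or 31.6% (29.9 to 33.4), and the 2i peak inside the serum peak at 686, or 24.3% (22.7 to 25.9). In the other pairs the peaks were staggered, with the 2i peak toward lower coordinates at 617 and toward higher ones at 628. Taken as groups, staggered pairs had similar median widths in serum and 2i ESCs (430 and 442 bp for the first kind, 438.5 and 451.5 bp for the second). These medians do not give the width ratio within a pair. The median centre shifts were 67 and 70.8 bp.

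**Figure D2:**
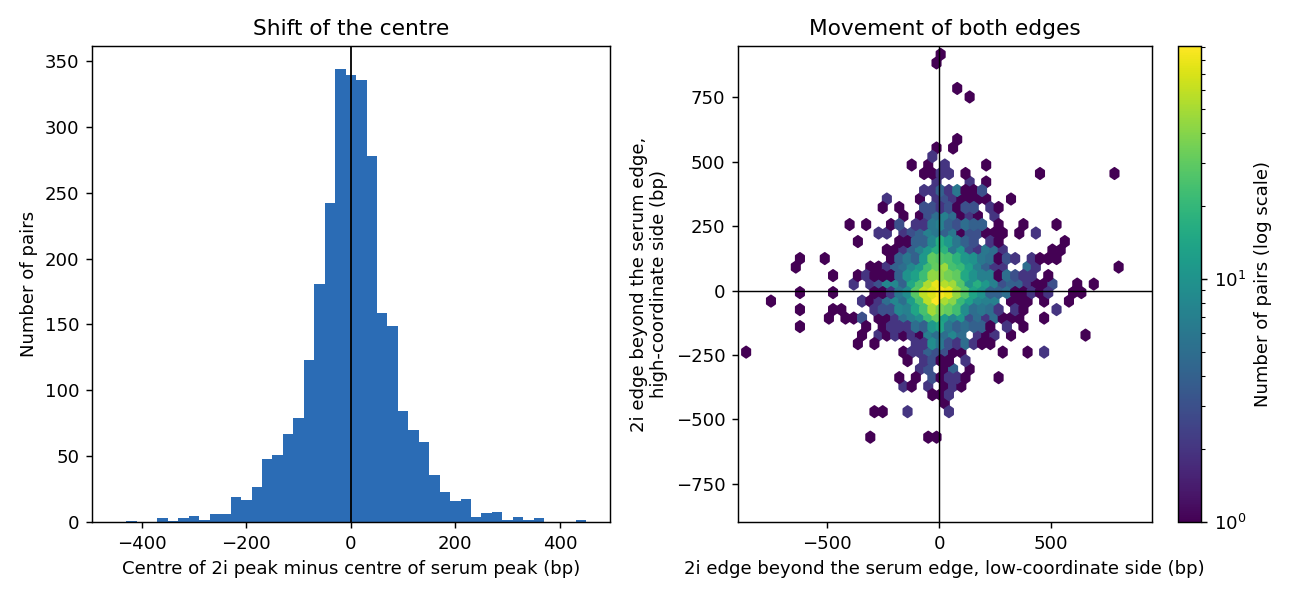
Left: number of pairs by signed centre shift, 2i minus serum, in bp; the distribution is centred on 0.5 bp. Right: distance in bp by which the 2i edge lies beyond the serum edge at the low-coordinate end (x) and at the high-coordinate end (y), coloured by the number of pairs on a log scale; the upper right part holds pairs with the serum peak inside the 2i peak and the lower left part the reverse.

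Pairs with a high mean rank differed less in shape between the media than those with a low one. The pairs were split into deciles by the mean of both ranks. In the lowest decile the log2 width ratio had quartiles of -0.32 and 0.47, and 33.0% of pairs differed by at least 1.5-fold. The third decile was the most variable, with quartiles of -0.39 and 0.58 and 43.6% of pairs past 1.5-fold. In the highest decile the quartiles were -0.13 and 0.18, and 7.42% were past 1.5-fold. The median centre shift was 55.5 bp in the lowest decile, or 23.3% of the narrower peak, and 39.5 bp in the highest, or 4.58%. The overlap as a share of the stretch covered by either peak was 59.7% and 86.4% in the same deciles. The share of pairs wider in 2i stayed between 53.5% and 59.7% in all 10 deciles. A very high or very low mean rank leaves little room for the 2 ranks of a pair to differ. Width ratio and difference in rank went together over the pairs (Spearman correlation 0.46). How much of the spread of width ratios is set by this split was not tested.

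**Figure D3:**
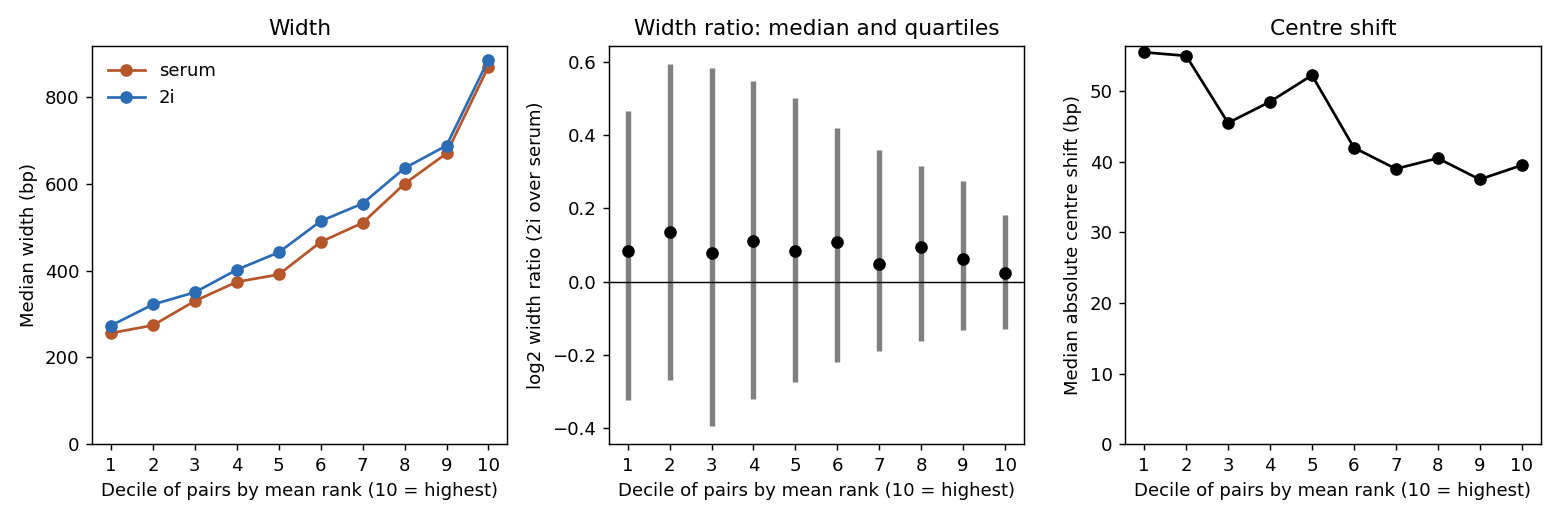
The 2825 pairs in deciles by mean rank (10 is the highest). Left: median width in bp in serum and 2i ESCs, which rises from 256 and 273.5 bp to 870 and 886 bp. Middle: median (point) and quartiles (bar) of the log2 width ratio, whose spread is smallest in the highest decile. Right: median absolute centre shift in bp.

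The order of the sites by score was similar in the media but far from the same. Ranks were taken among the 2825 pairs, so that both lists had equally many, and are given as percentiles from 0 (lowest score) to 100 (highest). The Spearman correlation between the media was 0.63 over the 2825 pairs, and that of the widths was 0.67. The absolute rank shift had a median of 14.2 percentile points (quartiles 5.81 and 27.4). It was under 5 points at 633 pairs, or 22.4%, and 50 points or more at 164, or 5.81%. A gain of 25 points or more in 2i ESCs was seen at 402 pairs (14.2% of those tested) and a loss of 25 points or more at 410 (14.5%). Gains and losses balance by construction, since both media rank the same pairs. The middle of the ranking moved most: the median absolute shift was 24.7 points in the fourth decile, 8.53 in the lowest and 3.86 in the highest. A very high or very low mean rank itself leaves little room for a shift, so the size of the shift at both ends is set in part by this split.

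The scores themselves were spread differently at the top. At the 50th percentile of the pairs the score was 19.04 in serum and 18.9 in 2i ESCs, at the 90th 60.1 and 51.4, and at the 99th 155.2 and 111.9. The strong end of the serum list thus reached higher values, on a scale that grows with depth.

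Rank and width differed in the same direction. The log2 width ratio and the rank shift had a Spearman correlation of 0.46 across the pairs, which share reads: width and score of a peak come from the same library. Of the 402 pairs that gained 25 points or more in 2i ESCs, 338, or 84.1% (80.1 to 87.5), were wider there. Of the 410 pairs that lost as much, 112, or 27.3% (23.1 to 31.9), were wider there. Of the first, 43.0% (38.1 to 48.0) were at least 1.5-fold wider, against the 16.7% of all pairs, and of the second 29.0% (24.7 to 33.7) were at least 1.5-fold narrower, against the 10.1% of all pairs. Opposite moves of this size in width and rank were seen at 28 pairs, or 0.99% (0.66 to 1.43) of the 2825. The correlation was present in every decile by mean rank, from 0.20 in the lowest to 0.60 in the fifth.

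**Figure D4:**
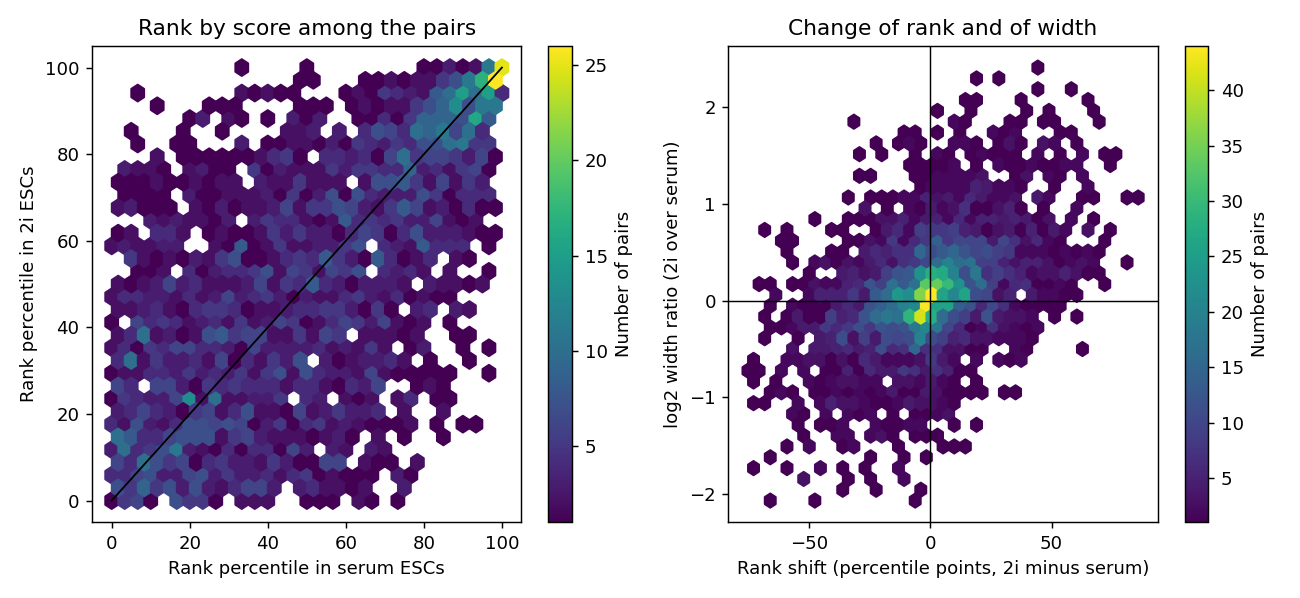
Left: rank percentile by score among the 2825 pairs in serum ESCs (x) and 2i ESCs (y), with the line of equal rank; points close up on the line at the high end. Right: rank shift in percentile points, 2i minus serum (x), against the log2 width ratio (y), with a Spearman correlation of 0.46 across pairs. Colour is the number of pairs.

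The sites named next were chosen by their values, as the extremes of each measure, and are described without a test. Ranks given for single peaks are positions in the whole lists of 4072 serum and 5934 2i peaks, counted from the highest score. The same number thus stands relatively higher in the longer 2i list, and only rank shifts in points compare the media on equal terms. The 5 pairs with the highest mean rank scarcely changed. The first, chr9:108392723-108393530 in serum, was 808 bp wide there and 790 bp in 2i ESCs, with a centre 52 bp lower. At chr15:99125245-99125881 the widths were 637 and 644 bp and the centre moved by 25.5 bp. At chr4:132833121-132833982 they were 862 and 977 bp, with a shift of 65.5 bp that came from the low-coordinate end, which lay 123 bp further out. The chromosome 9 and 15 sites were thus almost the same peak in both media, and the chromosome 4 site was longer at 1 end in 2i ESCs. The site at chr4:133368889-133370633 was long in both, at 1745 and 1753 bp, with its whole outline moved up by 82 bp. The fifth, chr1:55187680-55188738, had widths of 1059 and 1100 bp. All 5 also overlapped a peak of neural progenitor cells (NPCs) made from the tagged ESCs, as did 127 of the 283 pairs of the highest decile and 8.92% of all 2825.

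The sites with the largest gains of rank in 2i ESCs had a longer peak there. The top gain was at chr8:34764052-34764351, ranked 3630 of 4072 in the serum list with a score of 6.87 and 243 of 5934 in the 2i list with 58.4. Its width was 300 bp in serum and 623 bp in 2i ESCs. The site at chr11:70051192-70051459 ranked 3803 and 475, with widths of 268 and 573 bp. Both serum peaks lay wholly inside their 2i partners. At chr13:114584271-114584735 the ranks were 3380 and 298 and the widths 465 and 592 bp. The sites at chr1:60099854-60100144 and chr13:56236759-56237124 were 291 and 366 bp wide in serum and 824 and 1011 bp in 2i ESCs. In all 5 the serum peak was the shorter one.

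The largest losses were the mirror image. At chr2:156688458-156688991 the serum peak ranked 212 with a score of 71.9 and a width of 534 bp, and its 2i partner ranked 3736 with 9.87 and 312 bp. At chr2:68309678-68310333 the ranks were 820 and 5862 and the widths 656 and 191 bp. At chr8:109580499-109580837 they were 314 and 3724, with 339 and 159 bp. The 2i peak lay inside the serum peak at each of these 3 sites. The other losses were at chr9:44580859-44581148, with ranks of 737 and 5339, and chr10:98723978-98724670, with 763 and 5348.

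Among the strongest decile of pairs the rank shift was at most 19.4 points, within the narrow room that decile leaves. The largest gain there was at chr19:43749565-43750065, which scored 40.2 in serum (rank 620) and 132.6 in 2i ESCs (rank 17), with widths of 501 and 582 bp. Next was chr11:120534269-120534588, with scores of 38.9 and 100.2 and widths of 320 and 537 bp, and then chr1:193220084-193221060, with scores of 41.6 and 77.95. Serum list ranks of 597 to 654 thus stood against 2i list ranks of 17 to 111. The largest losses were at chr11:53163817-53164779 (ranks 70 and 669), chr5:100407774-100408709 (63 and 563) and chr15:101903798-101904550 (138 and 615). Each of these 3 was narrower in 2i ESCs, at 716 against 963 bp, 742 against 936 bp and 608 against 753 bp.

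The most extreme differences of width lay mainly on 1 side of the peak. At chr4:83131776-83131973 the serum peak of 198 bp met a 2i peak of 1047 bp, which ran 783 bp further at the high end and 66 bp further at the low end. At chr17:88839674-88839901 widths of 228 and 1139 bp came from 899 bp at the high end and 12 bp at the low end, which also made the largest centre shift of all pairs, 443.5 bp. At chr3:63099757-63099956 the widths were 200 and 973 bp, and at chr6:90319591-90319847 they were 257 and 1123 bp. The ranks of these 4 serum peaks lay between 3406 and 4030, near the end of the list. The site at chr13:55313150-55313495 was longer at both ends, by 778 and 466 bp, and was 1590 bp wide in 2i ESCs, where it ranked 82, against 1549 in serum.

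In the other direction, the peak at chr1:180335872-180336757 was 886 bp in serum and 212 bp in 2i ESCs, shorter by 620 bp at the low end and 54 bp at the high end. The site at chr15:90879639-90880672 had widths of 1034 and 248 bp and ranks of 430 and 3508. At chr15:93349425-93350065 a serum peak of 641 bp shared only 34 bp with a 2i peak of 156 bp, the shortest width in that list. Those 3 pairs had centre shifts of 283, 236 and 364.5 bp. At chr1:75313767-75314773 and chr5:109985740-109986793 the widths were 1007 and 250 bp and 1054 and 265 bp, while the rank shifts were only -4.75 and -21.5 points. A much shorter 2i peak was therefore not always one that ranked lower by 25 points or more.

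A few strong sites also differed in shape. At chr6:47403718-47404329 the peak was 612 bp in serum and 1490 bp in 2i ESCs, nearly all of it from 874 bp at the high end, with list ranks of 388 and 160. At chr14:58509051-58509456 the widths were 406 and 874 bp, with 454 bp more at the low end and ranks of 167 and 170. At chr1:145624165-145624567 they were 403 and 828 bp. Of these, the chromosome 14 site differed more than 2-fold in width at almost the same rank. Shorter in 2i ESCs were chr9:123760417-123761284 (868 and 347 bp), chr4:123341187-123342501 (1315 and 753 bp) and chr19:42055288-42056847 (1560 and 939 bp). The chromosome 4 site was shorter by 646 bp at the low end, and its centre lay 365 bp higher. At chr3:138189876-138190907 the widths were alike, 1032 and 1021 bp, and the whole peak lay 220.5 bp higher in 2i ESCs. Also among the 5 largest centre shifts of all pairs was chr19:3325352-3325557, a weak site with scores of 5.00 and 8.54. There peaks of 206 and 707 bp shared 36 bp and the centre moved by 420.5 bp.

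Sites with several partners were joined in 2i ESCs more often than split. Of the 219 groups in which 1 peak of a medium faced several of the other, 140, or 63.9% (57.2 to 70.3), had the single peak in 2i. In these joined groups the serum peaks spanned a median of 889.5 bp, of which they covered 715.5 bp, and the single 2i peak was 972.5 bp long. The serum peaks left a median of 108.5 bp between them uncovered. In the 79 split groups the single serum peak had a median of 744 bp and the 2i peaks spanned 855 bp, with 101 bp uncovered. The median gap was thus of about 100 bp in either direction. Gaps ran from 43 to 693 bp between serum peaks of joined groups and from 64 to 577 bp between 2i peaks of split groups. Whether both lists close gaps at the same distance is not known, and how far this sets the counts of joined and split groups was not tested. The 2i outline was the longer one in 85 of the joined and 52 of the split groups.

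The group with the most peaks was at chr17:39980049-39983320, where 7 serum peaks of at most 14.5 in score met 2 2i peaks that spanned nearly the same stretch, 3272 and 3327 bp. At chr3:79090371-79091210, 2 serum peaks met 3 2i peaks. Among groups of 4 peaks the strongest was at chr2:72816691-72818583, with a top score of 62.7 in serum and 133.5 in 2i ESCs and spans of 1893 and 2263 bp. At chr8:86520533-86522589, 2 peaks in each medium spanned 2057 and 2053 bp. At chr8:127472267-127473685, 3 serum peaks over 1419 bp were 1 peak of 1454 bp in 2i ESCs. The number of pieces thus differed in 3 of these 5 groups, with spans that were close in both media, while the chromosome 2 group had 2 peaks in each medium and the longer span in 2i ESCs.

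The rule of 1 bp let in few marginal cases. Only 32 of the 3324 pairs overlapped by less than 50 bp. The smallest overlaps were 1 bp, at chr11:78002281-78002495 (scores 5.95 and 5.08), 2 bp, at chr6:8459427-8459900 (31.1 and 11.5), and 5 bp, at chr2:104333960-104334204 (10.7 and 14.3). Just outside, the serum peaks at chr4:133228519-133228775 (scores 5.43 and 6.65) and chr6:47827556-47827750 (7.77 and 11.3) touched a 2i peak with 0 bp in common. Of the 830 unpaired serum peaks, 39 lay within 100 bp of a 2i peak and 143 within 1 kb.

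Sites that also overlapped an NPC peak differed less in width and rank between the media, but they were also wider and ranked higher. The NPC list was not used to choose the pairs, and 252 of the 2825 overlapped an NPC peak. Their median widths were 860 bp in serum and 889.5 bp in 2i ESCs, and 10.3% (6.85 to 14.8) differed by at least 1.5-fold, against 28.5% (26.8 to 30.3) of the pairs without an NPC peak. A rank shift of 25 points or more was seen at 11.5% (7.84 to 16.1) and 30.4% (28.7 to 32.3). The pairs with an NPC peak ranked higher, with a median mean percentile of 88.0 against 44.5, and pairs with a high mean rank varied less, as given above. Within the highest 2 deciles the shares past 1.5-fold were 4.55% (1.98 to 8.76) of 176 pairs with an NPC peak and 12.1% (9.01 to 15.7) of 389 without, and those past 25 points 1.70% (0.353 to 4.90) and 5.40% (3.37 to 8.13). Their ranks still differed there, with median mean percentiles of 91.8 and 85.7. So did their median widths, at 963.5 bp in serum and 988.5 bp in 2i ESCs with an NPC peak against 691 and 723 bp without. Whether an NPC peak matters apart from rank and width was not tested. Within these 2 deciles the shares past 25 points have intervals that overlap. The median log2 width ratio was 0.066 with an NPC peak and 0.074 without, a difference of -0.0085 with an approximate 95% interval of -0.057 to 0.040 over sites. The 2i peak was the wider one at 62.3% (56.0 to 68.3) of pairs with an NPC peak and 56.4% (54.5 to 58.4) of those without.

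The rank shift differed in level between chromosomes, a comparison made after the values were seen. Over all pairs 49.5% (47.6 to 51.3) had the higher rank in 2i ESCs. On chromosome 11 it was 73 of 212 pairs, or 34.4% (28.1 to 41.2), with a median shift of -7.56 points. On chromosome 10 it was 42 of 105, or 40% (30.6 to 50.02), with a median of -5.33 points. Chromosome 14 was the highest, with 62 of 95, or 65.3% (54.8 to 74.7), and a median of 7.81 points, followed by chromosome 6 with 63.8% (55.0 to 72.1) of 130. Losses of 25 points or more made up 25.9% of the pairs on chromosome 11 and 22.9% on chromosome 10, against 14.5% of all pairs, and 7.37% on chromosome 14. The interval lay below the value of all pairs on chromosomes 11 and 7 (41.7%, 34.4 to 49.2) and above it on chromosomes 14, 6, 9 (59.0%, 51.0 to 66.7) and 4 (56.9%, 50.02 to 63.6), while that of chromosome 10 reached it. By whole-list percentile 50.9% of pairs on chromosome 11 ranked higher in 2i ESCs, and 51.4% on chromosome 10, which is above the middle but again below all pairs (63.5%), and 74.7% on chromosome 14. The intervals are not adjusted for the 20 chromosomes looked at. Medium and library cannot be told apart in these values.

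Widths followed the same order. The 2i peak was wider at 36.8% (30.3 to 43.7) of pairs on chromosome 11, 40% (30.6 to 50.02) on chromosome 10, 71.4% (63.8 to 78.3) on chromosome 9 and 76.8% (67.1 to 84.9) on chromosome 14, against 57.0% of all. The median log2 width ratio was -0.10 on chromosome 11 and -0.16 on chromosome 10, the only chromosomes with a median below 0. It was 0.28 on chromosome 14. The median centre shift showed no such order and lay between 37 and 56.5 bp on every chromosome.

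Peaks that had no partner, which did not enter these ranks, were distributed alike. Of the 3514 unpaired peaks 23.6% (22.2 to 25.1) were serum peaks. The share was 47.2% (38.9 to 55.7) on chromosome 10, with 68 serum and 76 2i peaks, and 38.0% (32.0 to 44.3) on chromosome 11, with 95 and 155. It was 13.4% (7.995 to 20.6) on chromosome 14 and 7.89% (4.49 to 12.7) on chromosome 9, with 15 and 175. Across the 20 chromosomes the share of serum peaks among the unpaired and the median rank shift of the pairs had a Spearman correlation of -0.75. Both come from the same 2 libraries.

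**Figure D5:**
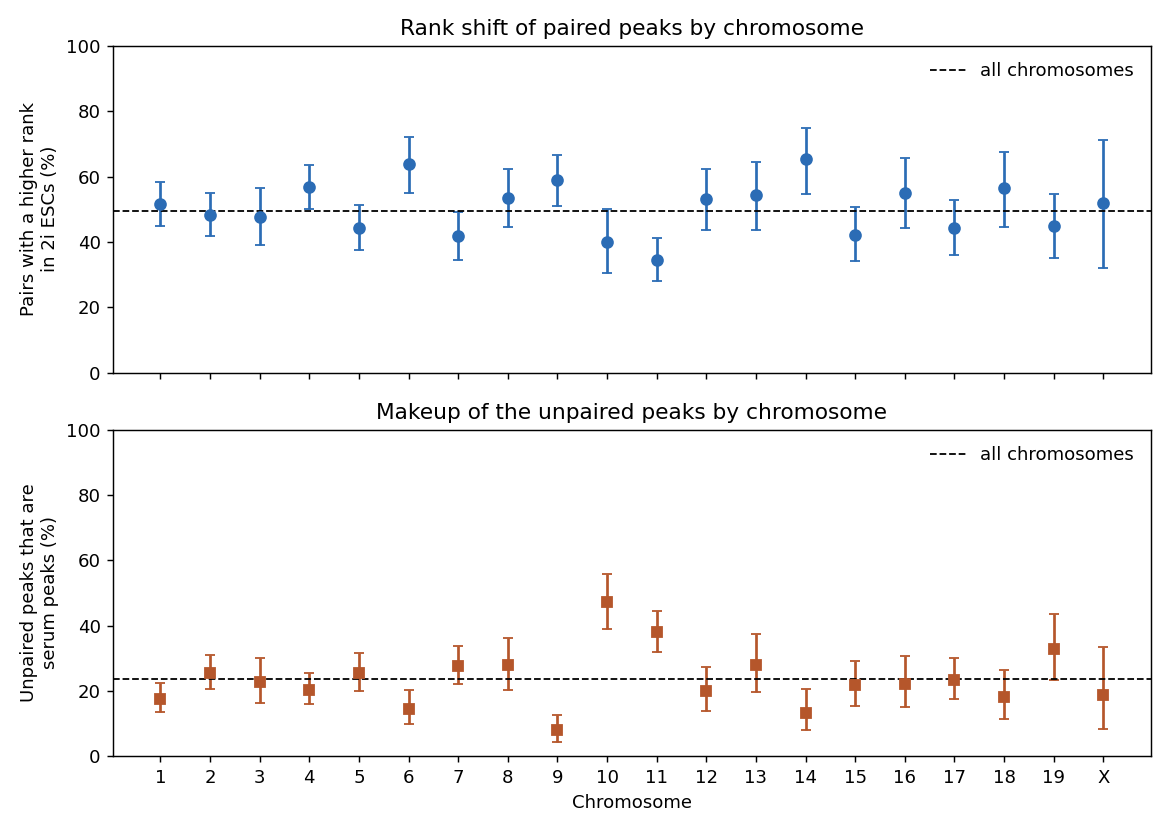
Top: share in percent of one-to-one pairs with a higher rank in 2i than in serum ESCs, by chromosome; bottom: share in percent of unpaired peaks that are serum peaks. Bars are exact binomial 95% intervals and dashed lines the value over all chromosomes (49.5% and 23.6%); chromosomes 10 and 11 lie low in the top panel and high in the bottom one.

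Within chromosome 11 the shift was largest in 1 part, as a division of the genome into windows of 20 Mb showed. Of the 68 windows with 20 pairs or more, the one at 40 to 60 Mb of chromosome 11 had the lowest median rank shift, -29.96 points, and the next lowest was -13.5, at 60 to 80 Mb of chromosome 10, where 9 of 21 pairs had the higher rank in 2i ESCs. Other windows of chromosome 11 had medians of -9.10 at 100 to 120 Mb and -8.06 at 60 to 80 Mb. The median was -4.18 at 80 to 100 Mb and 4.46 at 0 to 20 Mb. Among all 68 windows, 34 had a median below 0. The window at 40 to 60 Mb of chromosome 11 held 31 pairs, and 1 of them had a higher rank in 2i ESCs, by 1.65 points. All 31 were narrower there, with median widths of 560 bp in serum and 321 bp in 2i ESCs. Losses of 25 points or more were seen at 18 of the 31, or 58.1%. It was also the only one of the 68 windows with fewer 2i than serum peaks, 42 against 65, while the lists used had 1.44 2i peaks per serum peak. Among its unpaired peaks 33 were from serum and 9 from 2i. The segment thus had lower-ranked, shorter and fewer peaks in 2i ESCs, while the median centre shift of 43.5 bp was close to that of all pairs. No reads or inputs were used here, so whether the number of DNA copies of this segment, or of the first 70 Mb of chromosome 10, differed between the cultures was not tested.

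The 5 sites of that segment with the highest serum scores are given as a description, since a choice by serum score favours a lower rank in 2i ESCs. The peak at chr11:48630380-48631204 scored 148.2 in serum (rank 42, 825 bp) and 23.2 in 2i ESCs (rank 1298, 607 bp), with a rank shift among the pairs of -37.1 points. At chr11:53332992-53333780 the scores were 95.3 and 13.9, the list ranks 126 and 2575, the widths 789 and 463 bp and the rank shift -62.3 points. At chr11:49659876-49660799 they were 67.03 and 23.5, 249 and 1284, and 924 and 459 bp, with a shift of -29.96 points. The site at chr11:49016790-49017470 had the smallest rank shift of the 5, -4.78 points, with scores of 147.3 and 64.04, list ranks of 43 and 194 and widths of 681 and 549 bp. The other, chr11:53163817-53164779, is named above and had a shift of -18.9 points. Outside the segment chromosome 11 had 181 pairs with a median shift of -4.14 points, of which 72, or 39.8% (32.6 to 47.3), had the higher rank in 2i ESCs.

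The first 70 Mb of chromosome 10, a limit set after the values were seen, also held mostly pairs that ranked lower in 2i ESCs. There were 22 pairs there, of which 3 had a higher rank in 2i ESCs, with a median shift of -25.0 points. The 2i peak was narrower at 17 of the 22, and the median widths were 389 bp in serum and 309.5 bp in 2i ESCs. Among all peaks there, 69 were from serum and 35 from 2i, and among the unpaired 43 and 8. On the rest of the chromosome 83 pairs had a median shift of -1.42 points, and 39 of them, or 47.0% (35.9 to 58.3), had the higher rank in 2i ESCs. The dense block of 2i peaks left out above lies within the first 70 Mb, and its peaks are not in these counts. At the other end of the scale, the window at 80 to 100 Mb of chromosome 9 had a median shift of 19.1 points, with 17 of 22 pairs higher in 2i ESCs.

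Nearby sites had somewhat similar shifts. Pairs that followed each other within 10 kb (184 cases) had a Spearman correlation of 0.19 in rank shift and 0.19 in log2 width ratio. At 10 to 100 kb (647 cases) the values were 0.057 and 0.067, and at 100 kb to 1 Mb (1336 cases) 0.038 and 0.049. Beyond 1 Mb (638 cases) they were -0.033 and 0.071. Neighbours share local sequence and library, and the values were highest within 10 kb, without a steady order of width ratios beyond it.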

How the data were processed

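ZBTB2-GFP ChIP-seq peak lists of serum ESCs and 2i ESCs were used, and the NPC list only to mark pairs. Of the 8 samples, 3 had a list. MACS2 2.0, SAMtools and the build mm9 are named per the submitters' processing notes. No source used here gives the aligner, the control library or what merged means in the list names. The deposited score was read as −log10 of a p or q value, since its lowest value (3.03 in serum, 3.02 in 2i) lies just above −log10 of the 0.001 in the names; which of p and q is unknown. It was used to rank peaks, and scores in both media are also given side by side as a description. Positions are the authors' own, with starts given 1-based.

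Peaks overlapping by 1 bp or more were paired, and connected peaks were grouped. Width, centre and rank changes were computed on one-to-one pairs with Python 3.11.15, numpy 2.4.6, pandas 2.3.3 and scipy 1.17.1. On 200 sites with changed edges planted in simulated lists the functions returned the planted changes of width and centre. Scores were left as they were, so no change of rank was planted. The simulated peaks lay apart from each other, so groups with several partners were not simulated. For the real lists bedtools 2.31.1 gave the same 3324 pairs. No mm9 genome or annotation was used, so sites are named by position, without genes or sequence.

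Named pairs are, among one-to-one pairs, the 5 highest by mean rank, the 5 largest gains and losses of rank, rises and falls of width ratio and centre shifts, and the 3 largest of each change within the strongest decile. To these come the 5 groups with the most peaks. The members and lists were chosen with earlier results of these data known. The chromosome and window results were sought after seeing the data. Alternatives concerned the overlap rule, several partners, the excluded block, stricter and equal-length lists, joining of neighbouring peaks, the chromosomes used, narrow peaks and the definition of rank.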

Additional observations from a re-analysis of the deposited data

Results flagged for a closer look

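The block left out of chromosome 10 held shared sites too, which no comparison above uses: 6 overlapping pairs, left out by the choice of sites. The block had 7 serum and 83 2i peaks. In all 6 pairs the 2i peak was the wider one, with a median log2 width ratio of 0.86. Serum widths ran from 234 to 2361 bp and 2i widths from 666 to 3184 bp. List ranks ran from 4 to 2556 in serum and from 2 to 793 in 2i ESCs. The block lies in the first 70 Mb of chromosome 10, whose other pairs were mostly narrower in 2i ESCs. What sets the block apart was not tested.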

How the results depend on the processing

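Of 105 settings of the 10 measures over pairs, 77 stayed within the counting interval of the reported value or within 1.5 times the count, and no direction reversed apart from 1 measure. This was the difference in median log2 width ratio between pairs with and without an NPC peak, -0.0085 with an interval that spans 0, which changed sign in 6 of 10 settings (-0.037 to 0.010). A reciprocal overlap of 50% gave a median centre shift of 40.5 bp, 15.7% of pairs shifted by 100 bp or more, a rank correlation of 0.68, 26.1% with a rank shift of 25 points or more and a width and rank correlation of 0.40. All overlapping pairs gave, for the same measures, 55 bp, 30.9%, 0.57, 31.7% and 0.53, and a median log2 width ratio of 0.10. Pairing by longest overlap gave 49 bp and 25.5%. Joining peaks within 1 kb gave 51.5 bp, 28.5% and a width and rank correlation of 0.42. The higher-scored 50% of each list left 1558 pairs, with a median log2 width ratio of 0.046, a rank correlation of 0.60, 31.8% shifted in rank and a width and rank correlation of 0.42. A 2i list as long as the serum list put the serum peak inside the 2i peak at 34.3%. Ranking by width gave a correlation of 0.67 and 22.2% shifted, and whole-list percentiles 30.9% shifted. Without chromosomes 10 and 11 the median log2 width ratio was 0.10 and 59.4% were wider in 2i. Without peaks under 200 bp 58.8% were wider. These 2 settings, and those of the chromosome results, were chosen after seeing the data.

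By whole-list percentile, in which the longer 2i list lifts every rank, 63.5% of all pairs, 50.9% on chromosome 11, 51.4% on chromosome 10 and 74.7% on chromosome 14 were higher in 2i. Chromosome 11 then passes the middle but stays below the value of all pairs. Depth is unknown, so its limit cannot be given as a number. No paired analysis was possible because each medium had 1 library.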
